A study of Mus musculus with 96 samples.

Results

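The NF-kB family of transcription factors and their inhibitors were examined across all conditions of a surgery study in mouse microglia, the resident macrophages of the brain. The 10 genes were taken by symbol from a fixed list of subunits and inhibitors (Nfkb1, Nfkb2, Rel, Rela, Relb, Nfkbia, Nfkbib, Nfkbie, Tnfaip3 and Bcl3), and all 10 were found among 54532 gene models. Cells positive for Fcrls and CD11b and negative for Ly6C were sorted from the brains of wild-type mice, and 1000 cells were lysed per library for Smart-seq2 RNA sequencing. Young animals (3 to 5 months) and old animals (20 to 22 months) had abdominal surgery or served as controls, and were examined at 6 h or 48 h. The labels do not say what the control animals underwent. Hemisphere and hippocampus were taken from each of 48 animals, which gave 96 libraries in 16 groups, with 4 animals in each young group and 7 to 9 in each old group. In the old groups there were 7 surgery animals and 8 controls at 6 h, and 9 surgery animals and 8 controls at 48 h.

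NF-kB factors are dimers of subunits that share a DNA-binding domain. In resting cells most dimers are held in the cytoplasm by IkB proteins. Signals from cytokine receptors and Toll-like receptors lead to the breakdown of IkB, which frees RelA and c-Rel dimers and is called the canonical pathway. In the non-canonical pathway the p100 protein made from Nfkb2 is cut to p52, which acts with RelB. In macrophages and microglia these factors drive cytokine and chemokine genes. Several of the inhibitor genes are themselves switched on by NF-kB.

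The subunit genes lie on several chromosomes of the mm10 build. Nfkb1 (chromosome 3, 135584655 to 135691547) encodes p105, which is cut to p50, and Nfkb2 (chromosome 19, 46304320 to 46312385) encodes p100. Rel (chromosome 11, 23736847 to 23770970) encodes c-Rel, Rela (chromosome 19, 5637483 to 5648130) encodes the p65 subunit and Relb (chromosome 7, 19606217 to 19629438) encodes RelB. Among the inhibitors, Nfkbia (chromosome 12, 55489410 to 55492647), Nfkbib (chromosome 7, 28758251 to 28767512) and Nfkbie (chromosome 17, 45555703 to 45563169) encode IkB alpha, beta and epsilon. Tnfaip3 (chromosome 10, 19000910 to 19015657) encodes A20, a ubiquitin-editing enzyme that damps receptor signalling to NF-kB. Bcl3 (chromosome 7, 19808462 to 19822770) encodes an atypical IkB that works in the nucleus with p50 or p52. Exons of Bcl3 overlap those of the antisense model Gm16175, which held 2 counts. Exons of Nfkb2 overlap those of Psd on the opposite strand, and exons of Nfkbib overlap those of Sirt2 and Ccer2. Psd held 1074 counts over all libraries against 2543 for Nfkb2, and Sirt2 held 6162 against 2129 for Nfkbib. The use of strand in counting is not recorded in the labels or headers, so reads of such partners cannot be told apart.

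The promoters of these genes were searched for the kB consensus, the DNA element that NF-kB dimers bind, on both strands of the window from 250 bases before to 50 after each annotated RefSeq start (GRCm38.p6). The table held 8 of the 10 genes. Relb and Nfkb1 had no entry, so their promoters were not searched. Of these 8 genes, 6 had at least 1 match, against 9.55% of all 27025 genes in the table. Sites that overlapped each other were counted separately. Of the matches, 8 sites are shown, at least 1 for each matched gene, since autoregulation by NF-kB is a known trait of the family. Each is printed 5′ to 3′ on the gene's strand with 10 flanking bases on either side, and capitals mark the bases that match the consensus.
Nfkb2, chr19:46304688-46304717, plus strand: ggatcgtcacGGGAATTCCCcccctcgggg
Nfkb2, chr19:46304716-46304745, plus strand: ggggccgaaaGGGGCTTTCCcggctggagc
Nfkb2, chr19:46305695-46305724, plus strand: tggtattttcGGGACTTTCCtaagcagcac
Rel, chr11:23771042-23771071, minus strand: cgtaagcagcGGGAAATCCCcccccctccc
Nfkbia, chr12:55492657-55492686, minus strand: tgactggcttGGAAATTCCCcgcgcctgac
Nfkbie, chr17:45555584-45555613, plus strand: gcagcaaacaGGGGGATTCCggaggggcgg
Tnfaip3, chr10:19015403-19015432, minus strand: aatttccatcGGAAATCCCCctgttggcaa
Bcl3, chr7:19822734-19822763, minus strand: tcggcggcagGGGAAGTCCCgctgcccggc
Nfkb2 had matches in all 3 of its listed start windows, and the other 5 genes with matches had them in 1 window each. A match describes these letters only, and no binding was measured in this study.

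The 96 libraries held 1874168 to 3778939 estimated counts, with a median of 2703893. The 15 largest gene models took 53.05% to 81.2% of each library, so that 465922 to 1500332 counts were left for all other genes. Levels are given as CPM, counts scaled to library size, after TMM scaling over all libraries. In 6 libraries, all at 6 h, the low values were stepped and did not run evenly through 1, 2 and 3. They were replicates 1 and 4 of young control hippocampus and replicates 5 and 6 of old surgery hippocampus. The others were replicate 6 of old surgery hemisphere and replicate 7 of old control hemisphere. Surgery and age comparisons in hippocampus at 6 h thus set a group with stepped libraries against one without. Microglial markers were high in every library, with median levels of 1329 CPM for Csf1r, 1054 CPM for Cx3cr1 and 510 CPM for P2ry12. These are bulk samples, in which fewer cells of a type and less RNA per cell cannot be told apart. Libraries of different animals are the replicates, and hemisphere and hippocampus libraries of the same animal are not independent of each other.

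RNA of all 10 genes was counted in the sorted libraries, and the level differed widely between them. Per kb of merged exon length, Nfkbia stood highest, with a median of 61.4 CPM per kb over the 16 group means and a range of 28.9 to 99.5. Rela came next at 7.80 CPM per kb with group means from 6.78 to 9.05. The next 7 genes lay close together, at 3.59 for Nfkbib, 3.03 for Tnfaip3, 3.01 for Rel, 2.60 for Nfkb1, 2.50 for Relb, 2.39 for Nfkbie and 1.98 CPM per kb for Nfkb2. The ranges of group means of these 7 genes overlapped, so neighbours in this order do not differ beyond their spread over groups. Bcl3 was lowest at 0.237 CPM per kb, with 176 counts in all and a count above 0 in 61 of 96 libraries. It did not pass the count filter in any fit, and all 4 young surgery hippocampus libraries at 6 h were at 0. The cells that gave these counts cannot be told from bulk libraries.

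**Figure D1:**
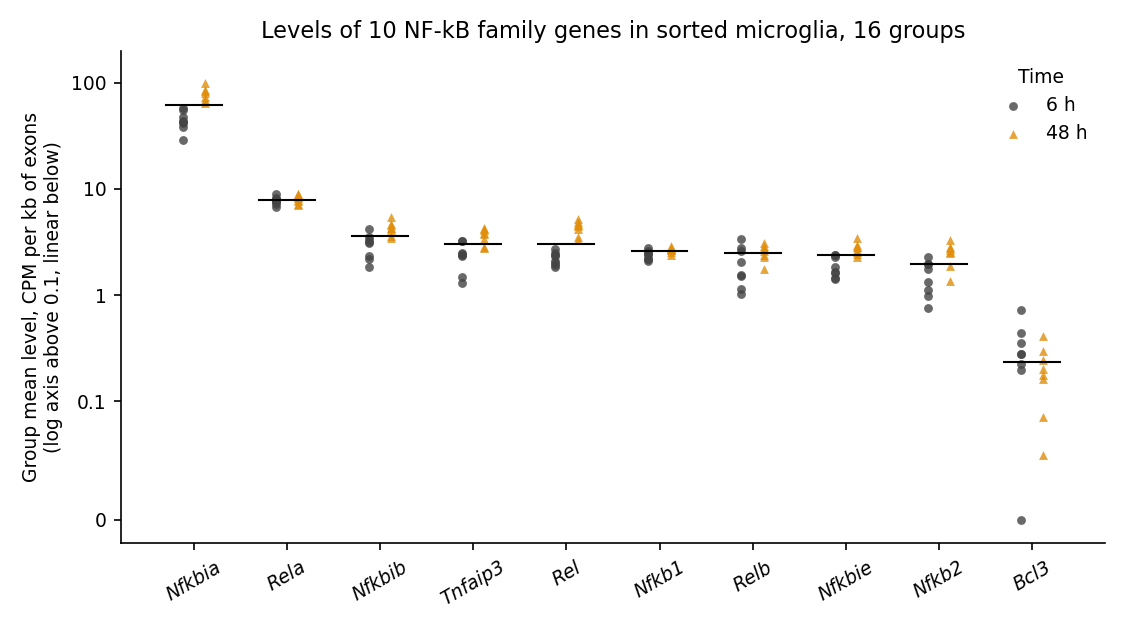
Mean level of each gene in each of the 16 groups, in CPM per kb of merged exons on an axis that is logarithmic above 0.1 and linear below, with circles for 6 h groups, triangles for 48 h groups and a line at the median of the 16 means. Nfkbia stands at a median of 61.4 and Bcl3 at 0.237, with Relb at 2.50 among the 7 genes of similar level.

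In absolute CPM, Nfkbia group means ran from 46.6 to 93.6 at 6 h and from 104 to 160 at 48 h. Rel had a similar split, with group means of 13.7 to 20.2 CPM at 6 h and 24.7 to 38.6 CPM at 48 h. The groups of the 2 times lie in separate deposited tables and hold different animals. Time and the handling of each set cannot be told apart for such levels, and only effects of surgery within a time were tested between times.

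Relb was lower after surgery in old hemisphere microglia at 6 h, and it was the only gene of the family to pass the test there. The 7 old surgery libraries had 1.71 CPM at the lowest, a median of 3.67 and 6.92 at the highest, against 9.43, 13.02 and 19.9 CPM in the 8 old controls. Every surgery library lay under every control library. Mean levels were 4.45 ± 2.04 CPM after surgery (SD, n = 7) and 13.1 ± 3.39 CPM in controls (SD, n = 8). The log2 fold change was -1.57 ± 0.30 (SE), with an adjusted p of 0.0112 in edgeR's quasi-likelihood test with Benjamini-Hochberg adjustment over 12760 genes. Of all genes tested, 0.337% passed in this comparison and 0.0784% passed as lower. Of the tested members 1 of 9 passed, but the list was chosen with earlier results of these data known. The share of the list that passed is therefore no test against that background. Surgery libraries lay wholly below controls for 0.0392% of genes, 5 of 12760. The values rest on modest counts, 5 to 19 Relb counts per surgery library and 19 to 50 per control library.

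The call held in each of 23 refits that left out 1 library, with log2 fold changes from -1.71 to -1.43, and DESeq2 gave -1.59 with an adjusted p of 6.756e-05. With old animals kept only where their sort number fell among those of the young, which left 3 surgery and 3 control animals, the log2 fold change was -1.07 and the edgeR adjusted p 0.847. With the replicate number as a block, the log2 fold change was -1.675 and the edgeR adjusted p 0.0723. The call was lost in both of these fits.

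Some markers of other cell types moved with this comparison. The summed level of 7 B cell markers was 44.7 to 85.2 CPM after surgery and 91.4 to 400 CPM in controls, with no overlap. Nearly all of it was Ighm, the heavy chain of IgM, at 35.7 to 55.7 CPM after surgery and 71.1 to 384 CPM in controls. Cd79a, which encodes a chain of the B cell receptor complex, was at or near 0, with a median of 0 after surgery and 0.403 CPM in controls. The sum of the 6 markers without Ighm was 5.00 to 32.8 CPM after surgery and 11.2 to 26.2 CPM in controls. The sum of 5 astrocyte markers was 46.9 to 76.1 CPM after surgery and 28.0 to 64.02 CPM in controls, and that of 5 oligodendrocyte markers 16.1 CPM at the lowest and 43 CPM at the highest after surgery, against 25.0 to 85.2 CPM in controls. Over all 96 libraries the astrocyte sum was largely Slc1a3, with a median of 37.5 CPM. Gja1 had a median of 7.52 CPM, and Gfap, Aqp4 and Aldoc had 0, 0.454 and 0.772 CPM. Neutrophil markers were at a median of 0 after surgery and 0.587 CPM in controls, with 1 surgery library at 170 CPM. Dendritic cell markers, from cells known to express Relb, summed to 5.00 to 16.4 CPM after surgery and 5.05 to 19.5 CPM in controls, which overlapped. Microglial markers overlapped too, at 4308 to 6968 CPM after surgery and 4170 to 7508 CPM in controls. The part of the astrocyte, oligodendrocyte and Ighm shifts in the Relb result was not tested.

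In young hemisphere at 6 h, Relb had 2.25, 3.10, 3.36 and 7.27 CPM after surgery, against 6.11, 8.17, 12.998 and 13.023 CPM in controls. Of the 4 surgery libraries, 3 lay under all controls and 1 lay among them. The log2 fold change of -1.34 ± 0.40 had an unadjusted p of 0.00288 and did not pass the edgeR test after adjustment (adjusted p = 0.583). The difference between the ages in the effect of surgery was -0.23 ± 0.50 (old minus young, adjusted p = 0.999 in edgeR), so an unequal response of Relb at the 2 ages was not shown. In the same young hemisphere libraries the sum of 5 astrocyte markers (largely Slc1a3 over all libraries) was 43.7 to 90.4 CPM after surgery and 28.9 to 44.4 CPM in controls. The sum of 7 B cell markers was 61.8 to 99.6 CPM after surgery and 93.8 to 139.5 CPM in controls. Ighm was at 48.3 to 77.8 CPM after surgery and 83.5 to 126 CPM in controls. The 6 B cell markers without Ighm summed to 9.69 to 21.8 CPM after surgery and 7.12 to 18.5 CPM in controls. The sum of 5 monocyte markers was low but did not overlap, at 11.24 to 15.97 CPM after surgery and 7.225 to 10.52 CPM in controls. In old hemisphere at 6 h that sum overlapped, at 4.008 to 24.97 CPM after surgery and 6.456 to 25.34 CPM in controls. The part of these marker shifts in the values of Relb and of Nfkbie in the young hemisphere libraries was not tested.

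In hippocampal microglia of the same animals, Relb did not pass. Old surgery hippocampus at 6 h had 2.27 CPM at the lowest, a median of 6.06 and 11.6 at the highest, against 7.38, 10.5 and 15.3 CPM in old controls. Of the 7 surgery libraries 5 lay under all controls, and the log2 fold change was -0.86 ± 0.33 (edgeR adjusted p = 0.466). Young hippocampus at 6 h had 4.10, 4.34, 7.24 and 8.07 CPM after surgery and 3.49, 4.26, 7.86 and 16.2 CPM in controls. These groups overlapped fully, with a log2 fold change of -0.35 ± 0.46 (edgeR adjusted p = 0.877).

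**Figure D2:**
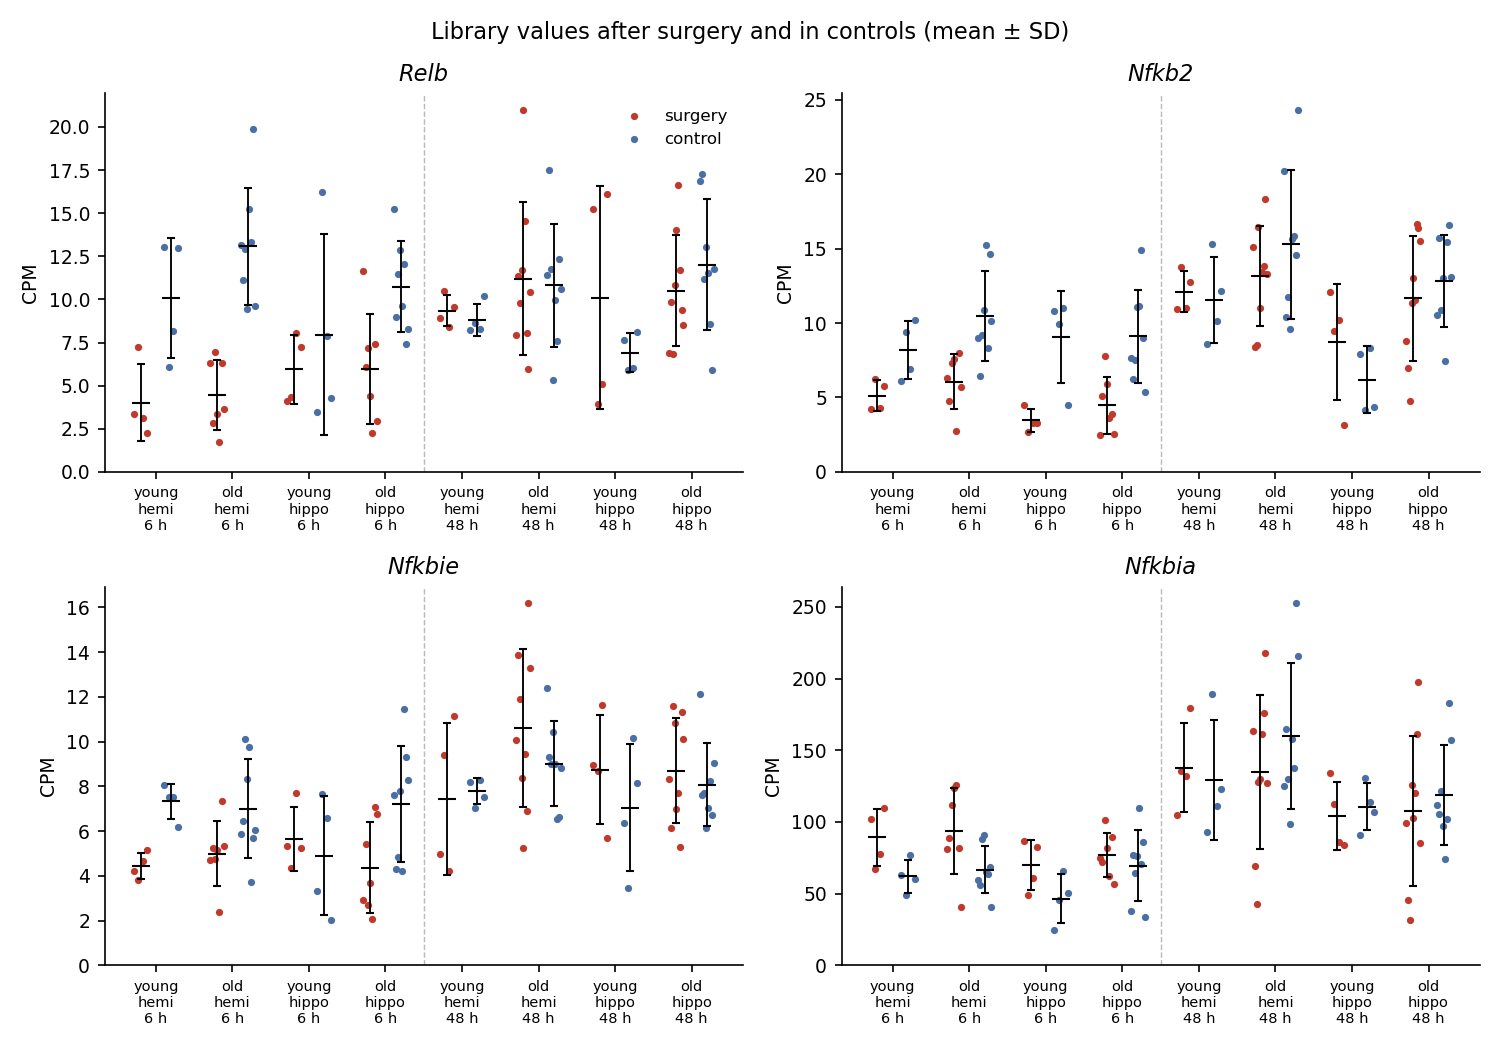
Level of Relb, Nfkb2, Nfkbie and Nfkbia in every library in CPM, with surgery in red to the left of control in blue, grouped by age, region (hemi is hemisphere, hippo is hippocampus) and time, and bars for the mean and SD. Relb in old hemisphere at 6 h lies at 1.71 to 6.92 CPM after surgery and at 9.43 to 19.9 CPM in controls, and at 48 h the groups overlap.

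Over the 16 groups, mean Relb lay in small steps. This order spans both times, which cannot be told apart from the handling of each set. The lowest were young surgery hemisphere at 6 h (3.99 ± 2.23 CPM, SD, n = 4), old surgery hemisphere at 6 h (4.45 CPM), young surgery hippocampus at 6 h (5.94 ± 2.02 CPM, SD, n = 4) and old surgery hippocampus at 6 h (5.99 ± 3.18 CPM, SD, n = 7). These were the 4 surgery groups of the early time. Next came young control hippocampus at 48 h (6.92 ± 1.13 CPM) and at 6 h (7.96 ± 5.83 CPM), and young hemisphere at 48 h with 9.35 ± 0.892 CPM after surgery and 8.82 ± 0.918 CPM in controls. Young control hemisphere at 6 h and young surgery hippocampus at 48 h both averaged 10.1 CPM. The other 6 groups, all old, lay between 10.5 and 13.1 CPM. Each step between neighbours in this order was smaller than the SD of either neighbour.

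At 48 h no difference in Relb between surgery and control was detected. Old surgery hemisphere had 5.94 CPM at the lowest, a median of 10.4 and 21.0 at the highest, against 5.35, 11.0 and 17.5 CPM in old controls. The groups overlapped, and the log2 fold change was 0.06 ± 0.22 (edgeR adjusted p = 0.991). In young hemisphere it was 0.08 ± 0.32, in young hippocampus 0.54 ± 0.38 and in old hippocampus -0.19 ± 0.25. Young surgery hippocampus at 48 h was split, with 2 libraries at 15.2 and 16.1 CPM and 2 at 3.94 and 5.09 CPM, against 5.90 to 8.13 CPM in its 4 controls. None of the 9 members tested passed in any of the 4 comparisons at 48 h, by edgeR or by DESeq2, and none had an unadjusted p under 0.05 by edgeR. Over all genes 0.0% passed in each of the 4. The share of all genes at an unadjusted p under 0.05 was 3.59% and 6.12% in hemisphere and hippocampus of young animals, and 5.84% and 3.6% in the same regions of old animals.

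The surgery effect on Relb in old hemisphere differed between the times when tested directly. It was higher at 48 h than at 6 h by 1.63 ± 0.36 on the log2 scale (edgeR adjusted p = 0.0316 over 14144 genes), where 0.17% of genes passed and 0.0636% passed as higher. This difference shares its 6 h part with the comparison above. DESeq2 gave an adjusted p of 0.00606. When each of the 32 old hemisphere libraries was left out in turn, a check chosen after seeing the data, the log2 difference stayed between 1.46 and 1.77, but 14 of the 32 refits put the adjusted p at 0.0502 to 0.0837. The 14 were the refits without old surgery 6 h replicates 2, 4, 5 and 7, old control 6 h replicates 5, 6 and 7, old surgery 48 h replicates 2, 5 and 6, and old control 48 h replicates 4, 5, 7 and 8. Without a filter on low counts the adjusted p was 0.108, and with old animals sorted among the young only it was 0.741. The same difference was 1.42 ± 0.51 in young hemisphere, 0.85 ± 0.60 in hippocampus of the young and 0.68 ± 0.42 in that of the old, and did not pass in any of these, where 0.00707%, 0.0% and 0.0% of genes passed in the same order.

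Nfkb2, whose p52 product pairs with RelB, was lower on average after surgery in all 4 comparisons at 6 h, but it passed in none of them. Young hippocampus had 2.71, 3.29, 3.30 and 4.51 CPM after surgery, against 4.46, 9.92, 10.8 and 11.0 CPM in controls. Only 1 control library, a stepped one, overlapped the surgery libraries. The log2 fold change was -1.37 ± 0.39 (unadjusted p = 0.0018, edgeR adjusted p = 0.359), in a comparison where 0.0365% of genes passed. Old hippocampus had 2.49 CPM at the lowest, a median of 3.88 and 7.76 at the highest after surgery, against 5.38, 8.31 and 14.9 CPM in controls, with 5 of 7 surgery libraries under all controls. Its log2 fold change was -1.02 ± 0.28 (edgeR adjusted p = 0.219), where 0.0876% of genes passed. In hemisphere the values were -0.80 ± 0.24 in old and -0.67 ± 0.33 in young animals (edgeR adjusted p = 0.217 and 1.00). Every surgery library lay under the median of its controls in each of the 4. In old hippocampus the sum of 5 astrocyte markers (largely Slc1a3 over all libraries) was 41.4 to 86.6 CPM after surgery and 31.3 to 48.8 CPM in controls, and that of 7 B cell markers 40.2 to 98.2 CPM after surgery and 94.7 to 126 CPM in controls. Ighm was at 36.3 to 76.4 CPM after surgery and 79 to 112 CPM in controls. The 6 B cell markers without Ighm summed to 3.82 to 21.8 CPM after surgery and 12.1 to 19.8 CPM in controls. The part of these marker shifts in the Nfkb2 values was not tested. At 48 h the log2 fold changes of Nfkb2 lay between -0.22 and 0.48.

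Nfkbie, whose product binds RelA and c-Rel dimers, had 3.81, 4.203, 4.65 and 5.14 CPM in young surgery hemisphere at 6 h, against 6.19, 7.51, 7.54 and 8.04 CPM in controls. All surgery libraries lay below all controls, as for 1.32% of genes in this comparison of 4 against 4. Means were 4.45 ± 0.576 CPM after surgery and 7.32 ± 0.793 CPM in controls (SD, n = 4 each), and the log2 fold change of -0.71 ± 0.32 did not pass (edgeR adjusted p = 1.00), where 0.0627% of genes passed. These are the libraries whose astrocyte, B cell and monocyte marker sums are given above. The log2 fold change of Nfkbie was -0.50 ± 0.24 in old hemisphere, -0.75 ± 0.32 in old hippocampus and 0.27 ± 0.44 in young hippocampus. Nfkbib followed no single direction, with -0.74 ± 0.54 and 0.71 ± 0.32 in hemisphere and hippocampus of young animals, and -0.53 ± 0.39 and -0.39 ± 0.23 in the same regions of old ones. None of these passed.

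Nfkbia, whose product IkB alpha is resynthesised to end the canonical response, had positive values at 6 h, none of which passed. Young hemisphere had 67.5, 77.5, 102.1 and 109.9 CPM after surgery, against 48.8, 60.04, 63.2 and 76.6 CPM in controls. Old hemisphere had 40.7 CPM at the lowest, a median of 88.9 and 126 at the highest after surgery, against 40.4, 64.6 and 91.0 CPM in controls. The groups overlapped in both. The log2 fold changes were 0.51 ± 0.28 and 0.48 ± 0.20 (edgeR adjusted p = 1.00 and 0.515), and in hippocampus 0.60 ± 0.32 in young and 0.14 ± 0.23 in old animals. Tnfaip3 was lower on average in hippocampus, at -1.29 ± 0.42 in young and -0.72 ± 0.31 in old animals, while hemisphere had 0.48 ± 0.60 in young and 0.07 ± 0.44 in old animals. None of these passed. The canonical subunits had small values. Across the 4 comparisons at 6 h the log2 fold changes were -0.05 to 0.21 for Rela, -0.22 to 0.27 for Nfkb1 and -0.36 to 0.13 for Rel.

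Counted over the 9 tested members at 6 h, edgeR and DESeq2 each called 1 lower and 0 higher in old hemisphere, and 0 in the other 3 comparisons. Over all genes edgeR called 0.0627% in young and 0.337% in old hemisphere, and 0.0365% in young and 0.0876% in old hippocampus. The share of all genes called by DESeq2 is not reported here. At an unadjusted p under 0.05 in edgeR, Relb and Nfkbie were lower in young hemisphere, 2 members where 1.93% of all genes were lower at that level. In old hemisphere Relb, Nfkb2 and Nfkbie were lower and Nfkbia higher, where 3.51% of genes were lower and 4.56% higher. In young hippocampus Nfkb2 and Tnfaip3 were lower and Nfkbib higher, where 3.69% of genes were lower and 4.16% higher. In old hippocampus 4 members were lower (Nfkb2, Relb, Nfkbie and Tnfaip3), where 4.14% of genes were. The median log2 fold change of the members in hemisphere was -0.11 in young and -0.13 in old animals, and in hippocampus 0.14 in young and -0.39 in old animals. Over all genes tested the medians of the same comparisons lay between -0.02 and 0.02.

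**Figure D3:**
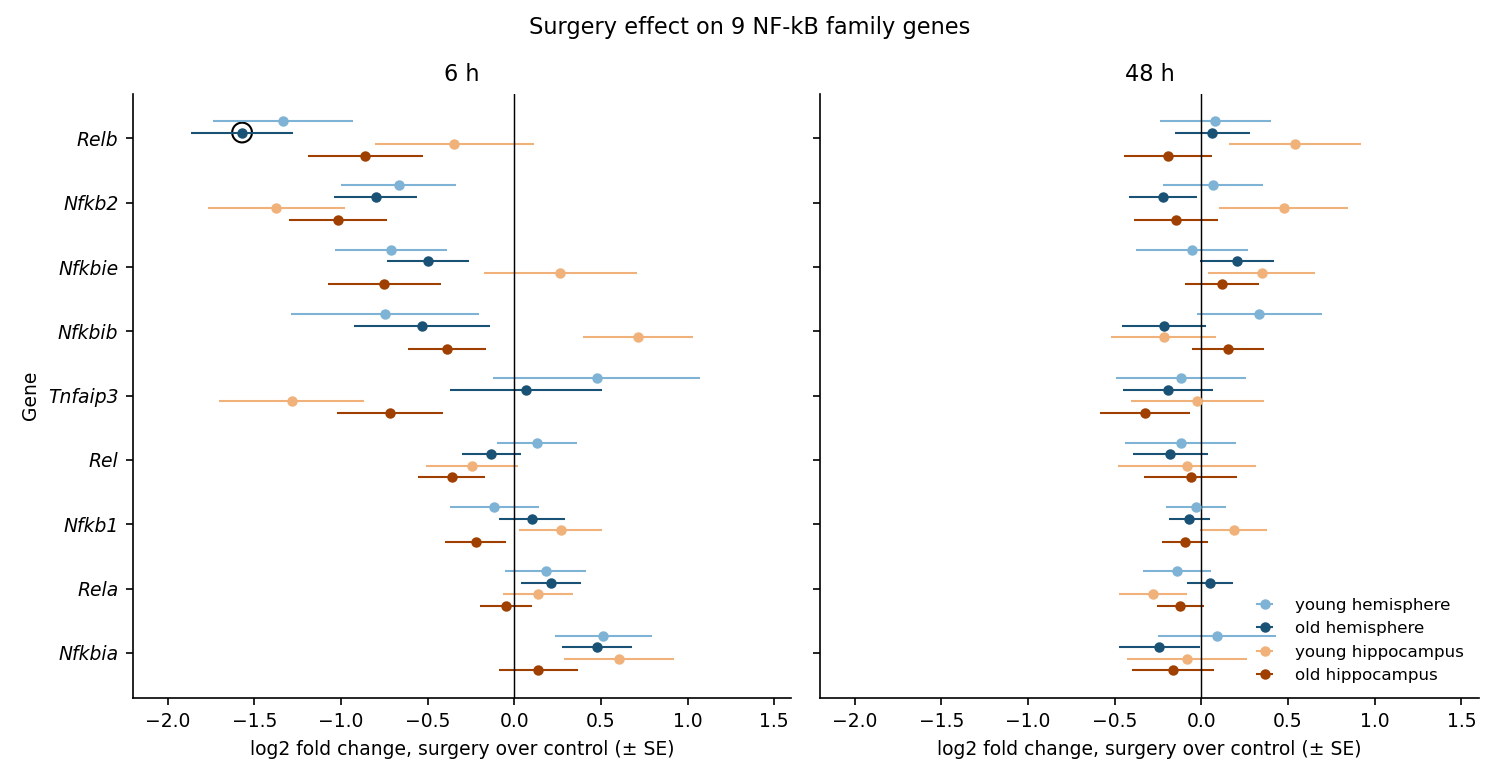
Log2 fold change of surgery over control with its SE for the 9 tested genes at 6 h (left) and 48 h (right), for hemisphere (blue) and hippocampus (orange) of young (light) and old (dark) animals, with a ring at the value that passed. Relb in old hemisphere at 6 h lies at -1.57, and at 48 h the values of all 9 genes lie between -0.33 and 0.54.

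The genes around the family were examined as 4 lists, chosen with earlier results of these data known. In the 4 surgery comparisons at 6 h edgeR called 0.0365% to 0.337% of all genes. Of the other inhibitors and modulators, 18 were tested at 6 h and 1 was called in each of the 4. This was Tsc22d3, which encodes GILZ, a protein induced by glucocorticoids that binds NF-kB. Its log2 fold changes in hemisphere were 1.94 ± 0.35 in young and 1.91 ± 0.26 in old animals (edgeR adjusted p = 0.0198 and 1.29e-04), and in hippocampus 1.88 ± 0.29 in young and 1.57 ± 0.21 in old animals (edgeR adjusted p = 0.00814 and 2.13e-04). In old hemisphere its surgery effect was lower at 48 h than at 6 h by a log2 difference of -2.04 ± 0.36 (edgeR adjusted p = 0.00988). Of kinases and adaptors upstream of NF-kB, 24 or 25 were tested and 0 were called, and their medians lay between -0.09 and 0.06. Tab1, an adaptor of the kinase TAK1, had log2 fold changes of -0.76 ± 0.33 in old hemisphere and -0.55 ± 0.34 in old hippocampus, Birc3, a ubiquitin ligase at TNF receptors, -0.57 ± 0.29 and -0.38 ± 0.26, Ripk1, a kinase at the same receptors, 0.37 ± 0.50 and 0.83 ± 0.39, and Chuk, the kinase IKK alpha, 0.13 ± 0.32 and -0.52 ± 0.30. Of 11 receptors 0 were called. Tlr7, a sensor of RNA, had log2 fold changes of 0.90 ± 0.24 in old hemisphere and 1.03 ± 0.26 in old hippocampus, and Tlr2, a sensor of bacterial lipoproteins, had -0.93 ± 0.22 and -0.51 ± 0.24 in the same order. Neither Tlr7 nor Tlr2 passed in edgeR (adjusted p = 0.125, 0.133, 0.0678 and 0.602 in the order given).

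Of 21 tested NF-kB target genes 0 were called by edgeR in any surgery comparison at 6 h. In old hemisphere 3 were lower and 0 higher at an unadjusted p under 0.05, where 3.51% of all genes were lower, with a median of -0.18 over the list against -0.02 over all genes. In old hippocampus 3 were lower and 0 higher, where 4.14% of all genes were lower, with a median of -0.31 against 0.02. The list in young animals was mixed. Young hippocampus had 3 lower and 2 higher, where 3.69% of all genes were lower and 4.16% higher, with a median of -0.22 against -0.02. Young hemisphere had 0 lower and 1 higher, where 2.49% of all genes were higher, with a median of -0.00 against 0.00. Cd83, a surface protein of activated antigen-presenting cells, had the nearest values, with -0.88 ± 0.21 in old hemisphere and -0.89 ± 0.20 in old hippocampus (edgeR adjusted p = 0.0715 and 0.0774). Cxcl16, a chemokine, had -0.67 ± 0.23 in old hemisphere and -0.23 ± 0.29 in old hippocampus, and Tnf had -0.39 ± 0.32 and -0.82 ± 0.40.

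Between old and young controls none of the 9 members passed, by edgeR or by DESeq2. Of the 8 old control animals at each time, 3 at 6 h and 4 at 48 h had sort numbers among those of the young. Age and sort order therefore cannot be fully told apart in these comparisons. At an unadjusted p under 0.05 in edgeR there were 0 in hemisphere at either time. In hippocampus 2 were higher at 6 h (Nfkbia and Nfkbib), where 4.56% of genes were, and 2 at 48 h (Nfkb2 and Relb), where 4.06% were. The share of genes called was 0.0784% in hemisphere and 0.0584% in hippocampus at 6 h, and 0.0898% and 0.0834% in the same order at 48 h. The largest difference was for Nfkb2 in hippocampus at 48 h, with 12.8 ± 3.11 CPM in old (SD, n = 8) and 6.19 ± 2.25 CPM in young controls (SD, n = 4) and a log2 fold change of 1.02 ± 0.33 (edgeR adjusted p = 0.370). Relb in the same comparison had 5.92 CPM at the lowest, a median of 11.7 and 17.2 at the highest in old controls, against 5.90, 6.01, 7.63 and 8.13 CPM in young controls. Its log2 fold change was 0.77 ± 0.34 (edgeR adjusted p = 0.568). At 6 h Nfkbib in hippocampus averaged 9.09 ± 1.44 CPM in old (SD, n = 8) and 4.78 ± 1.75 CPM in young controls (SD, n = 4), with a log2 fold change of 0.95 ± 0.28 (edgeR adjusted p = 0.323). Sirt2 reads cannot be told apart from those of Nfkbib where exons overlap.

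Of the target genes 0 were called by edgeR between old and young controls, but their values lay mostly above 0. Age and sort order cannot be fully told apart in these values either. At 48 h, 10 of 23 in hemisphere and 10 of 22 in hippocampus had an unadjusted p under 0.05, all higher in old, where the share of all genes at that level and higher was 3.62% and 4.06%. The list medians were 0.65 and 0.68, against 0.02 and -0.00 over all genes. Tnf had log2 fold changes of 1.43 ± 0.35 in hemisphere and 1.63 ± 0.45 in hippocampus (edgeR adjusted p = 0.172 and 0.213). At 6 h the list medians were 0.35 and 0.23. The 9 members themselves had medians of 0.05 and 0.15 at 6 h and 0.23 and 0.27 at 48 h.

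In the age by surgery interaction, which asks whether old and young animals responded unequally, 0 members were called by edgeR or DESeq2 in the 4 comparisons, and 0.0% of all genes passed in each. The nearest was Nfkbib in hippocampus at 6 h, at -1.10 ± 0.39 (old minus young, unadjusted p = 0.009, edgeR adjusted p = 0.511). It was the only member at an unadjusted p under 0.05 in any of the 4, and 3.77% of genes were lower at that level in its comparison.

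Hippocampal and hemispheric microglia were compared within animals. At 48 h 8 of the 9 members had a negative value, and 3 of them (Nfkb2, Nfkbia and Tnfaip3) had an unadjusted p under 0.05, as did 3.13% of all genes on the lower side, but none was called by edgeR, where 0.0371% of genes passed, all lower in hippocampus. Nfkbia came closest, with 31.3 CPM at the lowest, a median of 107.3 and 197 at the highest in the 25 hippocampus libraries, against 42.6, 132 and 253 CPM in the 25 hemisphere libraries. It was lower in hippocampus in 23 of 25 animals. The log2 fold change of -0.35 ± 0.08 had an unadjusted p of 1.25e-04 and an edgeR adjusted p of 0.132. DESeq2 called it (adjusted p = 0.00595), and so did edgeR without young surgery replicate 1 (adjusted p = 0.0239). The edgeR adjusted p was 0.527 without a filter on low counts and 0.74 without the animal as a block. Nfkb2 was lower in hippocampus in 18 of 25 animals, at -0.49 ± 0.14 (edgeR adjusted p = 0.402), and Tnfaip3 in 16 of 25, at -0.31 ± 0.14. Relb had a log2 fold change of -0.09 ± 0.14 at 48 h and 0.03 ± 0.19 at 6 h. At 6 h, where 0.0% of genes passed and 3.35% were lower at an unadjusted p under 0.05, 0 members were called by edgeR or DESeq2. Nfkbia, the only member past the unadjusted level, was lower in hippocampus in 17 of 23 animals, at -0.27 ± 0.10 (edgeR adjusted p = 0.734).

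Among the genes around the family, 2 were called at 48 h, both lower in hippocampus. Nfkbiz encodes an atypical IkB made during inflammatory responses, and was lower by a log2 fold change of -0.72 ± 0.13 (edgeR adjusted p = 0.0234). Ccl3, a chemokine gene and NF-kB target, was lower at -0.53 ± 0.09 (edgeR adjusted p = 0.0169). All 23 tested target genes had a negative value (Bcl2a1a, Bcl2a1b and Bcl2a1d are near-identical copies whose reads are uncertain), 13 of them at an unadjusted p under 0.05, against the 3.13% of all genes given above. The list median was -0.34 and that of all genes -0.00. At 6 h 17 of 22 had a negative value, with a median of -0.15, and 0 were called. The summed level of 12 microglial markers at 48 h overlapped between the regions in each of the 4 groups of age and treatment, and its difference was not tested. Its median in hippocampus was 10090 CPM in old surgery animals, 9417 CPM in old controls, 7402 CPM in young surgery animals and 7086 CPM in young controls. In hemisphere it was 7821, 6941, 8517 and 9312 CPM in the same groups. Its part in the region differences was not tested.

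**Figure D4:**
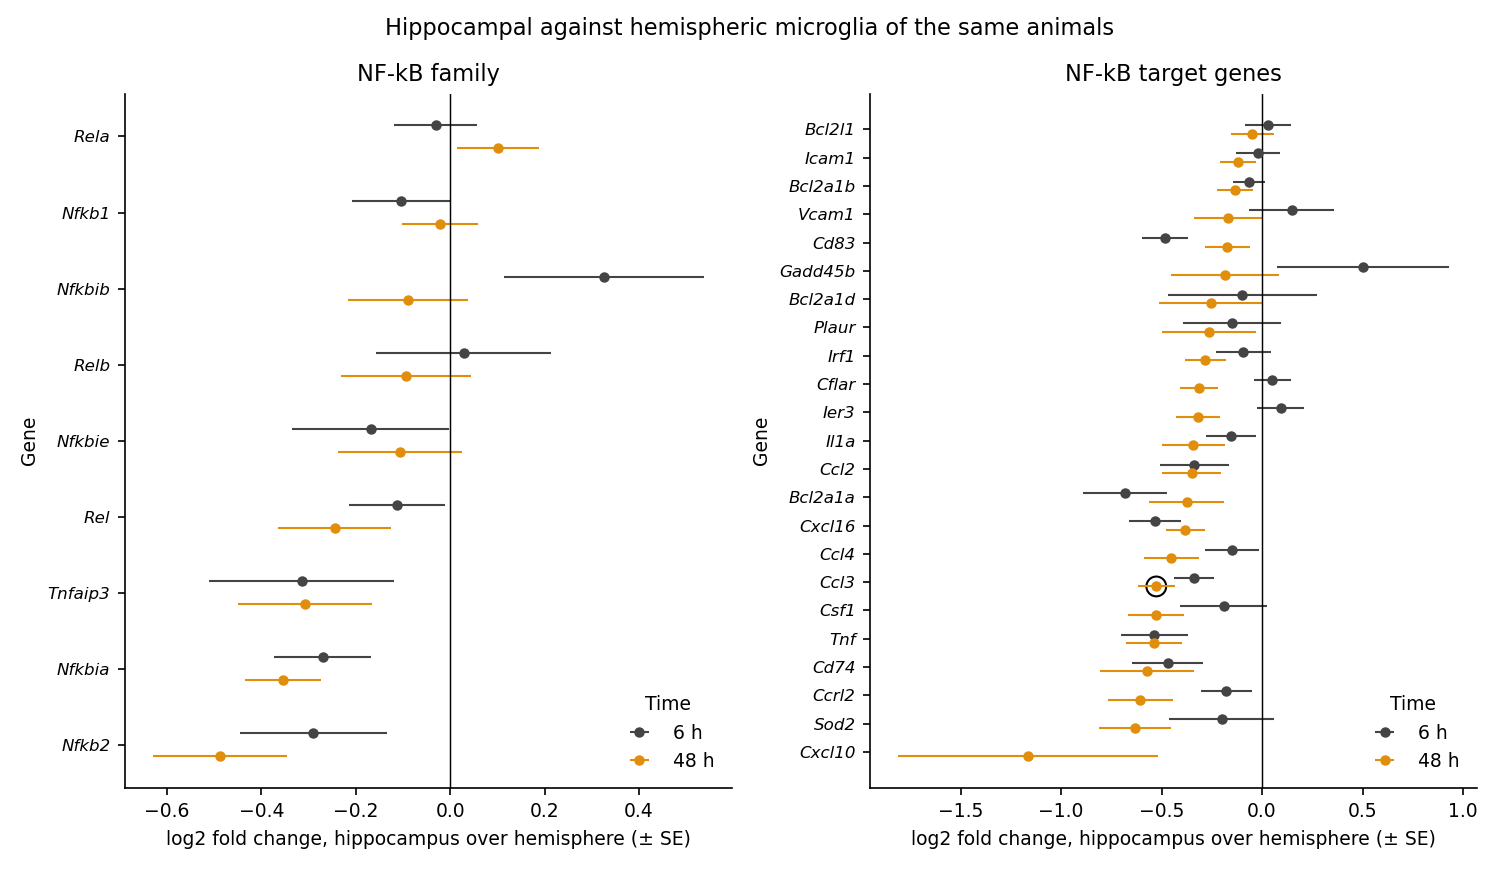
Log2 fold change of hippocampus over hemisphere within animals, with its SE, for the 9 tested family genes (left) and the tested NF-kB target genes (right), with black for 6 h, orange for 48 h and a ring at the value that passed. At 48 h Nfkbia lies at -0.35, Nfkb2 at -0.49 and Ccl3 at -0.53, and all 23 target genes lie left of 0.

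Within groups, libraries with more Nfkbia had more Tnfaip3. Over 96 libraries, with the group mean removed from log2 CPM, Pearson's r was 0.561, the highest of the 36 pairs of members. Nfkbia went with Nfkb2 at 0.472 and with Rel at 0.467, and Nfkb2 with Tnfaip3 at 0.450. Nfkb1 and Nfkbib had an r of 0.451 but a Spearman's rho of 0.187. Relb had no r above 0.187 with any other member. These libraries share depth and animals, and low counts such as those of Relb weaken any correlation. Over the 16 group means, the genes most like Relb by Spearman's rho among 2522 genes compared were Cd180 (0.906), a receptor related to Toll-like receptors, Trp53 (0.874), the tumour suppressor p53, Capn3 (0.874), a calpain protease, Gpr84 (0.853), a receptor for medium-chain fatty acids, and Itm2b (0.827), a membrane protein. Of the other members compared, Rel was closest at 0.479. These 16 means span both times, so differences in handling between the sets enter this likeness.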

How the data were processed

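Per the file headers, each deposited table holds whole-number estimated counts, with a row per Ensembl gene model and a column per library. The submitters' processing notes list mm10, R 4.2.1 and DESeq2 1.36.0. No aligner or counter is named in the labels or headers. Symbols and exon lengths came from an mm10 annotation that matched 54495 of 54532 gene models. From the deposited counts, edgeR 4.0.16 (R 4.3.3) quasi-likelihood F-tests were run with TMM scaling, robust dispersions and filterByExpr (minimum count 10), and p-values were adjusted by Benjamini-Hochberg over all genes tested, with a threshold of 0.05. The 4 groups of a region and time were fitted together, all 8 groups of a region for the difference between times, and all libraries of a time with the animal as a block for region. CPM values are TMM-scaled and SE is the error of the log2 fold change. The tests had been planned for read counts, and the estimated counts, already whole numbers, were used in them unrounded. The fits were tested on simulated data. Of genes changed 2-fold at 6 h, 16% were recovered in young hemisphere and 44% in old hemisphere. In hippocampus 9% were recovered in young and 42% in old animals. DESeq2 1.42.0, other scalings, filters and sample sets were tried as alternatives. The members and gene lists were chosen with earlier results of these data known. All members were named. Of each gene list, the text names from genes past the threshold and from the 2 with the largest fold change in old hemisphere and in old hippocampus at 6 h (mean log2 CPM of at least 3), plus the 5 genes closest to Relb over group means (mean log2 CPM of at least 4, predicted and mitochondrial genes left out). Genes past the threshold between regions were named as well, a choice made after their values were seen. The hemisphere and hippocampus libraries that share a sort number in the library name were taken as 1 animal. Single values of some marker genes are not reported here.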

Additional observations from a re-analysis of the deposited data

Results flagged for a closer look

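The surgery effect on Relb in old hemisphere differed between 48 h and 6 h by 1.63 on the log2 scale, by a direct test of the difference.

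Single libraries stood far from the others of their group in 7 of 144 sets of values (9 genes in 16 groups), 4.86%, where chance gives about 1 in 20. Nfkb1 was at 9.74 CPM in old control hemisphere 6 h replicate 7, against 24.7 to 32.2 CPM in the others, and Tnfaip3 was at 45.8 CPM in the same library, against 6.06 to 20.4 CPM. In old surgery hippocampus 6 h replicate 6, Nfkb1 was at 39.2 CPM against 16.4 to 26.2 CPM and Rel at 23.3 CPM against 10.5 to 15.2 CPM. Nfkb2 was at 4.46 CPM in young control hippocampus 6 h replicate 4, against 9.92 to 11.0 CPM. These 3 libraries are among the 6 with stepped low values. Rel was at 22.5 CPM in young surgery hemisphere 6 h replicate 3, against 19.3 to 19.6 CPM, and Rela at 37.5 CPM in young surgery hippocampus 6 h replicate 4, against 20.9 to 22.0 CPM.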

How the results depend on the processing

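Over 198 member fold changes, 6157 of 6183 alternative values kept their direction and side of the threshold (a main value within 1 SE of 0 was taken to have no direction). Nearly all main values were not called, and one that stayed uncalled without turning counted as kept. The share is therefore high by its definition. The count of members called in old hemisphere at 6 h was 0 with the replicate block and 0 with old animals sorted among the young only, and 1 in each refit without 1 library. For the difference between 48 h and 6 h in old hemisphere it was 0 with no filter and 0 with old animals sorted among the young only, and 0 to 1 when 1 library was left out. For region at 48 h it was 1 by DESeq2, and 0 to 1 when 1 animal was left out (leaving out old animals here was chosen after seeing the data). Values that turned, none of them called: without the stepped libraries Relb between old and young control hippocampus at 6 h was -0.14. With old animals sorted among the young only, Tnfaip3 in the same comparison was 0.0679, the surgery effect at 48 h was 0.0507 for Nfkb2 and 0.0858 for Nfkbia in old hemisphere and 0.29 for Tnfaip3 in old hippocampus, and the interaction for Nfkb1 in hippocampus at 48 h was 0.0108. The cause was not tested, beyond the fewer animals in that set. Residual correlations of 46 pairs of surgery and control libraries with the same replicate number ran from -0.213 to 0.242, with 10 above 0.1. In old hemisphere at 6 h they ran from -0.0695 to 0.176. Most surgery and control animals of the same age and replicate number had close sort numbers at 6 h, and at 48 h not all did. The widest gap at 6 h was old replicate 7, with sort number 64 for the control and 71 for the surgery animal. Low correlations over pairs of both times cannot decide whether same-numbered animals at 6 h form a block, so the block fit is given beside the main fit. With the replicate number as a block, Relb in old hemisphere at 6 h had a log2 fold change of -1.68 (edgeR adjusted p = 0.0723), and no other member's call changed. Relb, Nfkb2, Nfkbib and Nfkbie rest on group means of 10 to 42 counts per library, which limits the precision of each value.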
